A study of Homo sapiens with 6 samples.

Results

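Collagen VI is a short-chain collagen of the extracellular matrix. One chain each of α1, α2 and α3 wind into a triple helix, and the assembled units are secreted and joined end to end into beaded microfilaments that lie next to basement membranes and tie them to the interstitial matrix. COL6A1, COL6A2 and COL6A3 encode the classical chains, and COL6A5 and COL6A6 encode long chains that resemble α3 and can take its place. Fibroblasts and other mesenchymal cells make most of it, and it binds integrins, the proteoglycan CSPG4 (NG2) and the anthrax toxin receptors at cell surfaces.

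These 5 genes were taken by name from a table of 38167 genes, and all 5 were found and passed the filter on low counts that left 31074 genes. The family was chosen by measured values of these same counts, in which COL6A2 had been called higher in stiff libraries, so the stiff and soft values of the family describe that choice and support nothing beyond it. The samples were 6 libraries of RNA from small extracellular vesicles of Cal27 spheroids. Cal27 is an established squamous carcinoma line of the tongue, and a spheroid is a ball of cells grown without attachment. In the soft group (3 libraries) the spheroids sat in Matrigel at 3 mg/mL, and in the stiff group (3 libraries) at 12 mg/mL, both for 14 days. The series title asks how matrix stiffness shapes vesicle release and cargo. All groups share 1 cell line and 1 gel, a mouse tumour basement membrane extract, so the gel concentration, its stiffness and its protein content changed together. Vesicle RNA is a mixed pool, in which fewer vesicles carrying a transcript and less of it per vesicle cannot be told apart.

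Libraries held 2445498 to 2977837 counts. Ribosomal RNA genes took 2.97% to 8.87% of them in soft and 20.02% to 22.9% in stiff libraries, and mitochondrial genes 1.48% to 1.81% and 0.162% to 0.201%. Levels in CPM, counts scaled to a common library size, were therefore adjusted by TMM factors, which set the middle of the gene distribution level between libraries. Squamous epithelial markers had a summed level of 529 to 535 CPM in soft and 574 to 595 in stiff libraries, and fibroblast markers 411 to 433 and 429 to 451. Endothelial markers summed to 266 to 300 CPM in soft and 283 to 300 in stiff, and immune markers to 159 to 196 and 159 to 177. Of the 15 squamous, 12 fibroblast, 7 endothelial and 8 immune markers, 0 were at 0 counts in any library. The 1 called by edgeR was the squamous keratin KRT14 (log2 fold change 0.69 ± 0.17, adjusted p = 0.0279), beside 0.451% of all genes called. Among the squamous markers, limma-voom, DESeq2 with or without its filter, and edgeR with a correction for GC content called 0. Per kb of exon, the median marker stood at 19.5 raw counts for the squamous list and 10.1 for the fibroblast list, 14.7 for the endothelial and 15.3 for the immune list. The part of these markers in the results was not tested.

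The chains share a collagen helix, written in the messenger as a repeat of triplets that each open with a glycine codon (GG followed by any base). That repeat is shown for COL6A2 and the 3 members off chromosome 21 because it makes visible the base composition by which they differ. Each line gives the first 90 bases (30 codons) of the longest unbroken repeat in the coding sequence of the GENCODE 29 transcript matched to RefSeq, 5′ to 3′, with every G or C at the last base of a codon in capitals.
COL6A2: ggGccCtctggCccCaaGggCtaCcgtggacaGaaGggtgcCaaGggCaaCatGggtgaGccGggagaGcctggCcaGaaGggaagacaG
COL6A3: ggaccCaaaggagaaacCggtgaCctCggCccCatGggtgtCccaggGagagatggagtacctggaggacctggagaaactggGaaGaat
COL6A5: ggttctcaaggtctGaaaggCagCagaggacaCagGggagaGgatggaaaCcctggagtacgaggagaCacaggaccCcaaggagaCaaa
COL6A6: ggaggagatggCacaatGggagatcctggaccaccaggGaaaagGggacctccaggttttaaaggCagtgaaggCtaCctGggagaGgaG

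In these windows COL6A2 has G or C as the last base of 21 of 30 codons, against 11 in COL6A3 and 10 in COL6A5 and in COL6A6. Over the whole unbroken repeat the share was 62.8% in COL6A2, 42.2% in COL6A3, 33.3% in COL6A5 and 31.7% in COL6A6. The GC content of the whole repeat was closer between COL6A2 and COL6A3, at 68.7% and 64.2%, with 55.0% in COL6A5 and 54.8% in COL6A6. The unbroken repeat runs for 87 triplets in both COL6A1 and COL6A2 (codons 256 to 516 of COL6A2). It runs for 45 in COL6A3, 37 in COL6A5 and 42 in COL6A6. Over the whole coding sequence, the last base was G or C in 79.0% of codons of COL6A1 and 80.9% of COL6A2, and in 60.4%, 42.4% and 49.2% of COL6A3, COL6A5 and COL6A6. Glycine codons made up 15.2% of codons in both COL6A1 and COL6A2, and 9.54%, 9.33% and 10.2% in the others, which carry longer globular parts. The pair thus differed from the rest both in the last base of its codons and in its share of glycine codons. No stretch of 61 bases, the read length, was shared between any 2 of these transcripts (0 in all 10 pairs), so a read from one member would not match another exactly.

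COL6A1 and COL6A2 lie side by side on the plus strand of chromosome 21 (45981770 to 46005048 and 46098112 to 46132848, RefSeq on GRCh38). Their exons, all GENCODE 29 transcripts joined, hold 64.1% and 65.9% G and C. COL6A3 is on the minus strand of chromosome 2 (237324018 to 237414164), with an exon GC of 48.6%. COL6A5 and COL6A6 follow each other on the plus strand of chromosome 3 (130345672 to 130484846 and 130516720 to 130677042), at 43.8% and 44.7%. Reads fall on exons of each gene as a whole, so the alternative ends of COL6A2 and the alternative exons of COL6A3 were not told apart. Start regions were read from RefSeq, not from the GENCODE 29 transcripts that gave the exon GC. In the RefSeq promoters (GRCh38.p14, 250 bases before to 50 after the start), matched for COL6A2, COL6A3 and COL6A6, GC was 79.3%, 56.3% and 67.0%, against a median of 58.7% over 35116 promoters. CpG pairs numbered 36 in COL6A2, 4 in COL6A3 and 24 in COL6A6, with a median of 14 over all. The GC box GGGCGG, searched on both strands, matched 4 times in COL6A2, 2 times in COL6A6 and 0 times in COL6A3, and 45.0% of all promoters hold at least 1. The TATA motif TATAAA, on both strands, matched 1 time each in COL6A2 and COL6A6 and 0 times in COL6A3, with 11.5% of all promoters holding it. The GENCODE 29 exons of COL6A6 begin at 130560334, downstream of this promoter (130516927 to 130517226). Its promoter and exon GC thus come from different gene models and cannot be set against each other.

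Per length, the chromosome 21 pair had the most counts of the family in every library. Counts per kb were also higher in GC-rich genes at large. Protein-coding genes within 2 percentage points of GC had medians of 35.1 to 40.1 for COL6A1 and 40.4 to 46.4 for COL6A2. For COL6A6 these medians were 11.8 to 13.4. The part of GC content in the order of members was not tested. COL6A2, the α2 chain, had 57.2, 55.5 and 59.8 raw counts per kb of exon in the soft group (replicates 1 to 3). In the stiff group it had 65.2, 76.7 and 72.2. COL6A1, the α1 chain, had 49.4, 48.5 and 49.8 in the soft group, and 51.1, 60.5 and 58.4 in the stiff group. Both genes had their lowest values in soft, and no soft library reached a stiff one. These are raw counts, not scaled to library size, and how often other genes separate on them was not computed. On CPM scaled by TMM, 7.39% of all genes tested had groups apart with stiff higher. COL6A6 came next, with 20.7 to 28.4 counts per kb over the 6 libraries, its lowest and highest both in stiff. COL6A5, a chain best known from skin, had 13.5 to 15.3, and COL6A3, the α3 chain, 10.3 to 12.8.

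The members come from these same counts, so the test of their levels within a library shows only how steadily their order repeated. Each of the 10 pairs of members kept its order in 6 of 6 libraries (exact paired permutation test over libraries, two-sided, p = 0.03125, the smallest that 6 libraries give, and 0.03125 after Benjamini-Hochberg adjustment over the 10 pairs). COL6A2 stood 1.37 ± 0.26 above COL6A6 on the log2 scale (SD over 6 libraries), and 2.45 ± 0.20 above COL6A3. COL6A1 stood 1.09 ± 0.20 above COL6A6 and 0.28 ± 0.07 below COL6A2. Any order kept in 6 of 6 libraries gives that smallest p, and at the low end the order rests on the exon length. COL6A3 was 0.28 ± 0.16 below COL6A5 with all annotated exons (19633 bases), but 0.52 above it with the exons of RefSeq-matched transcripts (10864 bases, a choice made after seeing the data). With those lengths COL6A3 had 18.7 to 23.2 counts per kb, was below COL6A6 in 5 of 6 libraries (adjusted exact p = 0.0625), and COL6A2 and COL6A1 still led in 6 of 6. The annotation the authors counted over was not given in the sources used here, so the place of COL6A3 is uncertain. Without any 1 library, 5 libraries cannot give an exact p under 0.0625.

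**Figure D1:**
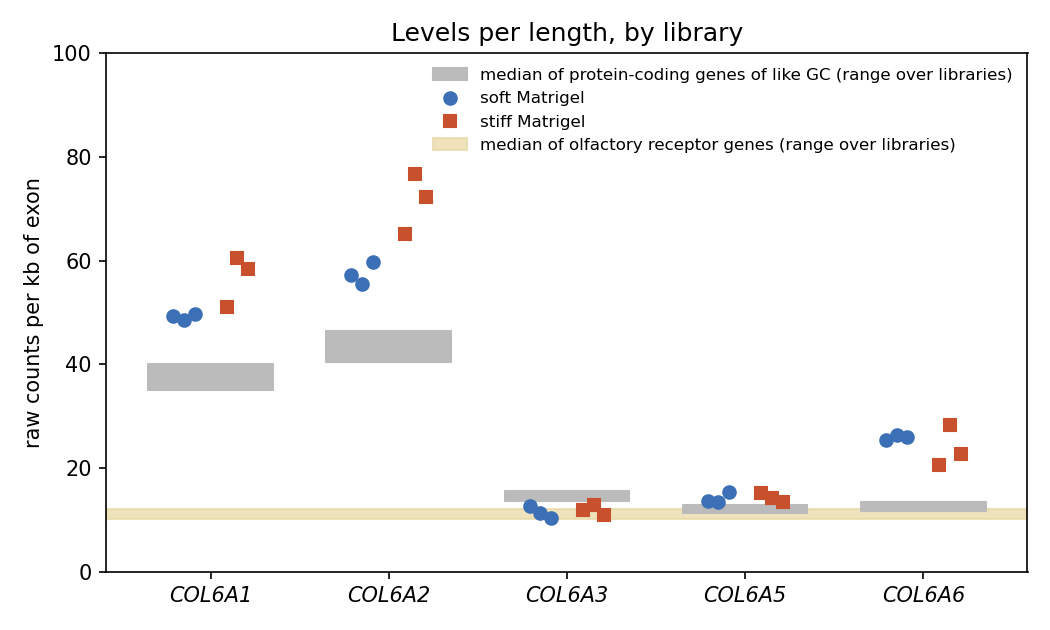
Raw counts per kb of exon (y axis) of the 5 collagen VI genes (x axis) in each soft (blue circles) and stiff (orange squares) library. Grey boxes span the library medians of protein-coding genes within 2 percentage points of the member's GC content, and the pale band those of olfactory receptor genes. COL6A1, COL6A2, COL6A5 and COL6A6 lie above their box in all 6 libraries, and COL6A3 lies under it. Lengths are of all annotated exons, and the boxes were not computed on RefSeq-matched lengths.

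The levels were set beside genes of like base composition and beside genes that epithelial cells keep silent. Olfactory receptor genes (381 with an exon length), which serve smell in nasal neurons, had a median of 10.2 to 12.1 counts per kb, and protein-coding genes as a whole 14.8 to 16.8. COL6A3, at 10.3 to 12.8, overlapped the range of the olfactory receptors, and COL6A5, at 13.5 to 15.3, lay above it. On RefSeq-matched lengths both places changed. The medians were then 16.1 to 18.2 for olfactory receptors and 20.5 to 23.3 for protein-coding genes. COL6A3, at 18.7 to 23.2, lay above the former and overlapped the latter, and COL6A5, at 14.0 to 15.9, lay below both. With all annotated exons, protein-coding genes with a GC content within 2 percentage points of COL6A1 had medians of 35.1 to 40.1, and those near COL6A2 40.4 to 46.4. Both members of the pair stood above these medians, as did COL6A6, at 20.7 to 28.4 against 11.8 to 13.4, and COL6A5, at 13.5 to 15.3 against 11.4 to 12.9. COL6A3 stood below its own, 13.7 to 15.6. Medians by GC content were not computed on RefSeq-matched lengths, so the places of COL6A5 and COL6A3 against them may rest on the length used. How much of these counts came from spliced messenger and how much from other nucleic acid was not tested.

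Between stiffness conditions, COL6A2 and COL6A1 were the 2 members whose groups did not overlap. COL6A2 had 308, 299 and 322 counts in soft and 351, 413 and 389 in stiff libraries, or 113 ± 6.56 and 147 ± 5.37 CPM (SD, n = 3 each). Every stiff library stood above every soft one. Its log2 fold change was 0.39 ± 0.085 (SE), a 1.31-fold higher level in stiff. COL6A1 had 264, 259 and 266 counts in soft and 273, 323 and 312 in stiff, or 95.8 ± 3.20 and 116 ± 4.56 CPM. Its groups were also apart, with a log2 fold change of 0.28 ± 0.090, or 1.21-fold. The CV of CPM between replicates was 3.34% to 5.82% for these 2 genes, beside a counting error of 5.10% to 6.17% of the mean count. Of all genes tested, 7.39% had groups that did not overlap with stiff higher, and 6.76% with stiff lower.

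The other members overlapped between groups. COL6A3 had 250, 222 and 203 counts in soft and 236, 252 and 217 in stiff (81.9 ± 7.77 and 90.3 ± 7.68 CPM, log2 fold change 0.14 ± 0.099). Its highest soft library lay above its lowest stiff one. COL6A5 had 131, 129 and 147 counts in soft and 145, 137 and 129 in stiff (49.5 ± 4.63 and 52.7 ± 5.48 CPM, 0.09 ± 0.13). COL6A6 had 247, 256 and 252 counts in soft and 201, 276 and 221 in stiff (91.6 ± 2.19 and 89.0 ± 11.6 CPM, −0.04 ± 0.096). Its stiff libraries were split, with replicate 2 above all soft ones and the other two below them. Intervals of 2 SE around these fold changes ran from −0.06 to 0.34 for COL6A3, −0.16 to 0.34 for COL6A5 and −0.23 to 0.15 for COL6A6, and those of COL6A3 and COL6A5 reach the 0.28 of COL6A1. The broken copies of the human COL6A4 gene, COL6A4P1 and COL6A4P2, both pseudogenes on chromosome 3, had log2 fold changes of 0.27 ± 0.26 and −0.00310 ± 0.12.

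**Figure D2:**
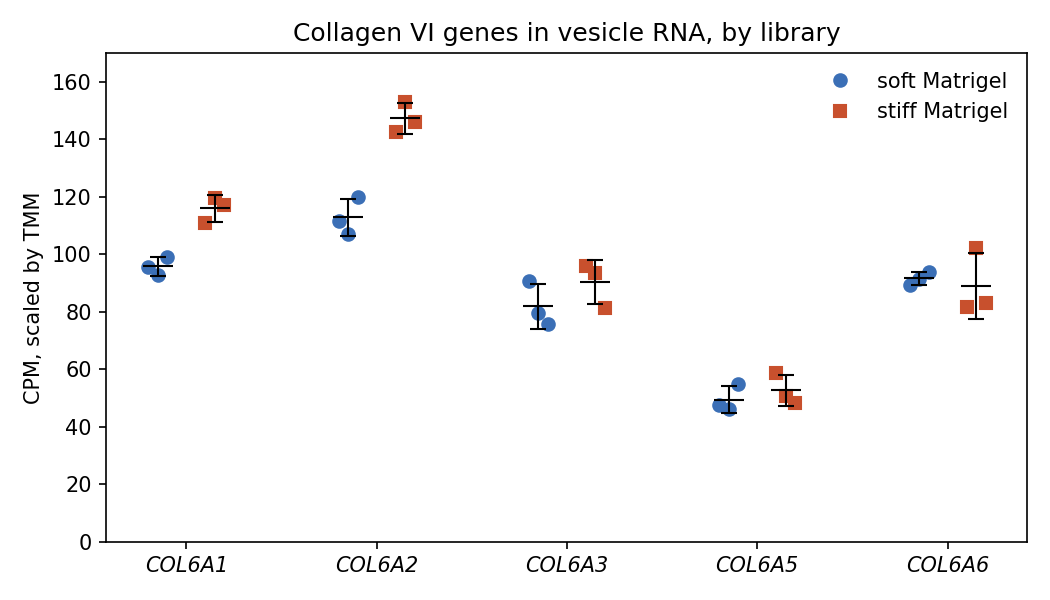
CPM scaled by TMM (y axis) of the 5 collagen VI genes (x axis) in each soft (blue circles) and stiff (orange squares) library, with group means and SD in black (n = 3). COL6A1 and COL6A2 have stiff libraries above all soft ones, and the other 3 genes overlap.

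In the fit over all genes (edgeR quasi-likelihood, Benjamini-Hochberg over 31074 genes), 1 member of 5 was called, COL6A2 (adjusted p = 0.00578). It is the value for which the family was picked and is repeated as a description. All genes gave 0.451% called, and 0.286% called higher in stiff. Calls were more frequent among genes of like GC content. Of 771 tested protein-coding genes within 2 points of COL6A2 in GC, 26 were called higher and 1 lower. Of 1181 within 2 points of COL6A1, 15 were called higher and 2 lower. COL6A1 had an adjusted p of 0.178, COL6A3 0.700, COL6A5 0.888 and COL6A6 0.946. Of the 5 members 4 had a fold change above 0, with a median of 0.14, against 49.2% of all genes and a median of −0.00466. Protein-coding genes within 2 points of COL6A1 and COL6A2 in GC had 78.9% and 85.1% above 0, with medians of 0.14 and 0.17. Without soft replicate 2 or stiff replicate 2 the adjusted p of COL6A2 was 0.0828 or 0.0985, with log2 fold changes of 0.35 and 0.36.

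Library size cancels in ratios between members within a library. A GC effect that differs between libraries does not cancel, and these ratios were not corrected for GC content. COL6A1 and COL6A2 together made up 47.7%, 47.9% and 49.4% of the family's counts in soft and 51.7%, 52.5% and 55.3% in stiff libraries. These groups did not overlap, and the difference was 4.86 percentage points (3.81 to 5.58 with each library left out, an alternative added after seeing the data). Against COL6A3 alone the pair's ratio was 2.29, 2.51 and 2.90 in soft and 2.64, 2.92 and 3.23 in stiff. Those overlapped, with a ratio of means of 1.14. Inside the pair, COL6A2 exceeded COL6A1 1.17, 1.15 and 1.21 times in soft and 1.29, 1.28 and 1.25 times in stiff, again without overlap. How often ratios of other genes separate in this way was not computed. Of single genes, 7.39% had groups apart with stiff higher. These shares and ratios come from the contrast by which the family was chosen, so they only describe it. Across the 6 libraries the log2 CPM of COL6A1 and COL6A2 ran together (Pearson r = 0.992, 6 points that share the group difference), while r between either of them and the other 3 members was −0.05 to 0.47.

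Base composition moved with the stiff and soft contrast across all genes, and the pair lies at its GC-rich end. Over 23080 tested genes with an exon GC value, the log2 fold change had a Pearson r of 0.170 and a Spearman rho of 0.183 with GC content across genes, which are not independent replicates. Over the 13894 of them with a mean count of at least 50, a set that includes the members, these were 0.267 and 0.268. The median fold change was −0.03 for genes at 40% to 45% GC, 0.08 at 60% to 65% and 0.19 at 65% to 70%. Protein-coding genes within 2 points of COL6A1 in GC (1181 tested) had a median of 0.14, with the middle 50% from 0.02 to 0.24. Those near COL6A2 (771 tested) had a median of 0.17, with the middle 50% from 0.07 to 0.27. COL6A1 at 0.28 and COL6A2 at 0.39 were above these ranges. COL6A3 at 0.14 stood just inside that of its own GC neighbours (−0.13 to 0.14), and COL6A5 and COL6A6 lay within theirs. Beyond the correction that follows, the part of GC content in the COL6A2 value was not tested.

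**Figure D3:**
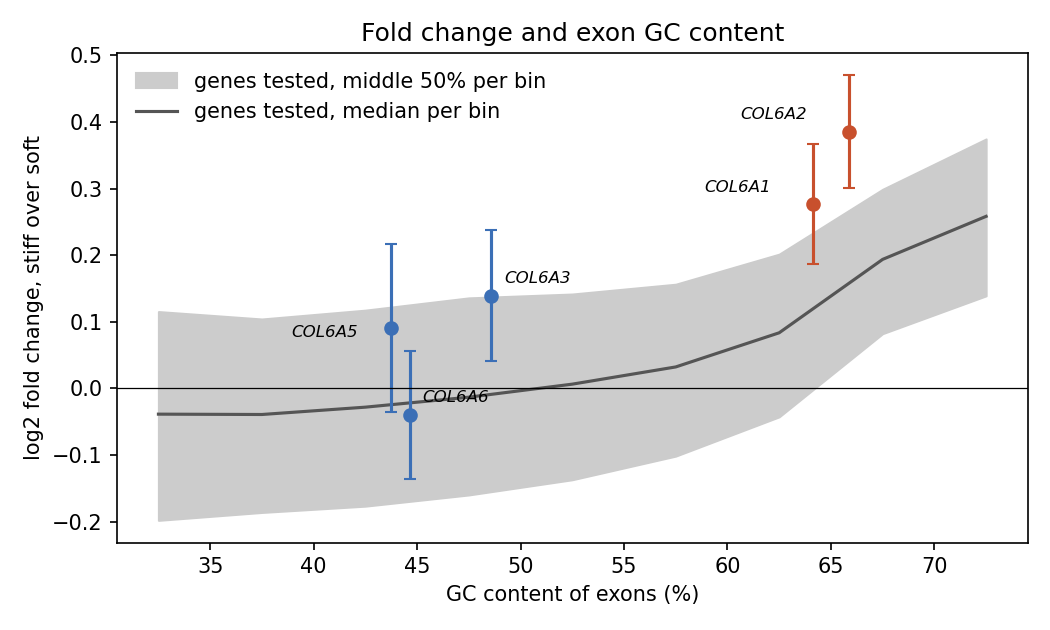
Log2 fold change, stiff over soft (y axis), against exon GC content in percent (x axis). The line and grey band are the median and the middle 50% of all tested genes in bins of 5 points that hold at least 20 genes, and the points are members with their SE. COL6A1 and COL6A2 (orange) lie at the GC-rich end, above the band of genes near them.

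With a per-library GC curve taken out before the fit, the pair moved towards the other members. COL6A2 went to 0.22 ± 0.080 (1.16-fold, edgeR adjusted p = 0.321) and COL6A1 to 0.14 ± 0.087 (1.10-fold, 0.678). COL6A3 stayed at 0.13 ± 0.096, COL6A5 at 0.10 ± 0.12 and COL6A6 at −0.03 ± 0.094. In this fit 0 of 5 members were called, beside the 1 called without a GC term. That fit tested the 23080 genes with a GC value and called 62, 26 higher in stiff and 36 lower. The fit without a GC term called 86 of these same 23080 genes higher and 28 lower, and 89 and 51 over all 31074. Scaling by library totals alone put the median of all genes at −0.27, COL6A2 at 0.12 (adjusted p = 0.344), COL6A1 at 0.01 and the other 3 below 0, with COL6A6 at −0.30 (adjusted p = 0.0312). Relative to that median, COL6A2 and COL6A1 again came first. Library sizes computed without ribosomal RNA and mitochondrial genes gave COL6A2 0.39, as before.

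**Figure D4:**
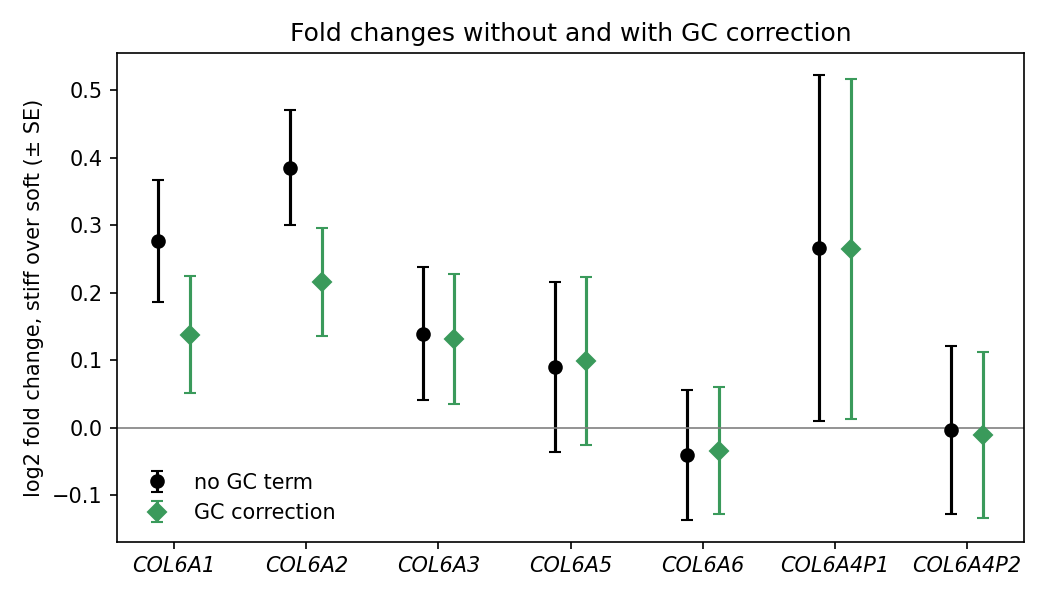
Log2 fold change, stiff over soft, with SE (y axis), for the 5 collagen VI genes and the pseudogenes COL6A4P1 and COL6A4P2 (x axis), without a GC term (black circles) and with GC correction (green diamonds). COL6A2 moves from 0.39 to 0.22 and COL6A1 from 0.28 to 0.14, while the others barely shift.

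The protein-coding genes around the pair had smaller fold changes than its members. Their median exon GC was 56.2%, beside 64.1% and 65.9% for COL6A1 and COL6A2. The part of GC content in this difference was not tested. Within 500 kb of COL6A1 and COL6A2, 20 of 22 genes were tested and 0 were called (edgeR; 1 at an unadjusted p under 0.05, and 0 called by limma-voom or by DESeq2 with or without its filter), and the 12 protein-coding ones had fold changes from −0.24 to 0.19 with a median of 0.07. The nearest on either side were PCBP3, a poly(C)-binding protein gene, at 0.19 ± 0.11, and FTCD, an enzyme of histidine breakdown, at 0.06 ± 0.11. Both overlap an antisense gene, and whether counting used strand was not given in the sources at hand. Around COL6A3, 0 of 12 tested neighbours were called (1 at an unadjusted p under 0.05), with COPS8 at 0.25 ± 0.23 and MLPH at 0.01 ± 0.13 nearest. Around COL6A5 and COL6A6, 0 of 18 were called (2 at an unadjusted p under 0.05), beside 0.451% called and 9.52% at an unadjusted p under 0.05 over all genes. Here the protein-coding median was −0.21, and the nearest were ALG1L2 (−0.23 ± 0.26) and PIK3R4 (−0.06 ± 0.18).

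**Figure D5:**
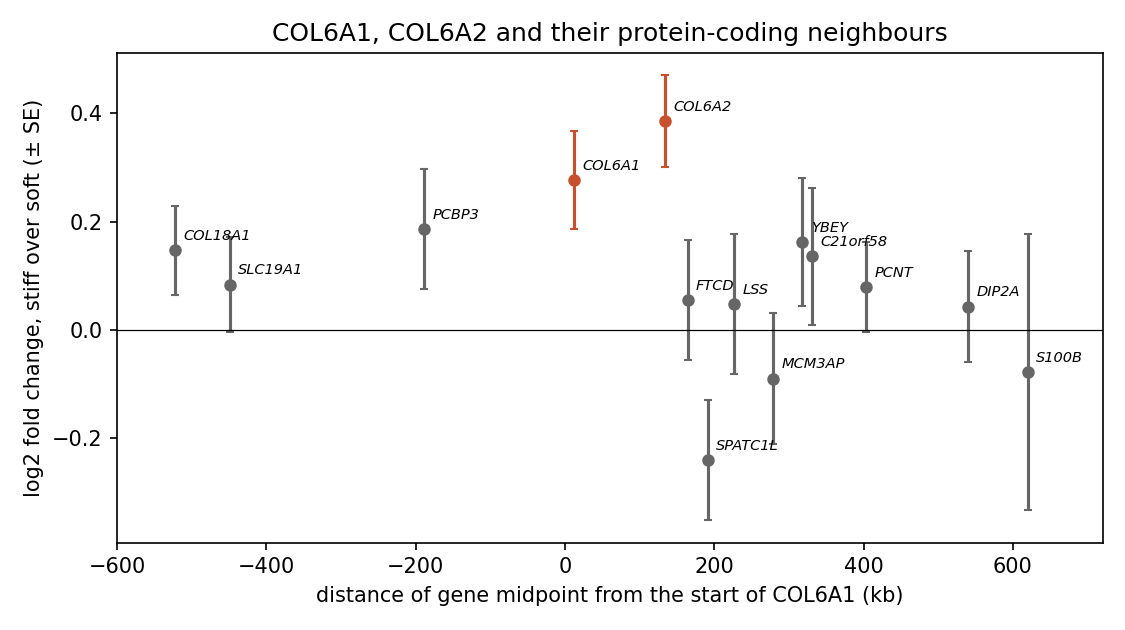
Log2 fold change, stiff over soft, with SE (y axis), of COL6A1 and COL6A2 (orange) and the protein-coding genes within 500 kb (grey), by distance of each gene's midpoint from the start of COL6A1 in kb (x axis). The neighbours range from −0.24 to 0.19, under both members of the pair, and have a lower median exon GC (56.2%).

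Of the genes that collagen VI works with 0 were called, beside 0.451% called and 9.52% at an unadjusted p under 0.05 over all genes. Lists this short can hold no called gene at that share. Of 20 receptors and binding partners 0 passed (edgeR), with 0 at an unadjusted p under 0.05 and a median fold change of −0.01. Its most abundant genes were TNXB, the tenascin-X of the same matrix (159 ± 12.9 CPM in soft and 159 ± 9.47 in stiff), and CSPG4 (92.1 ± 6.27 and 94.2 ± 10.0). Both have a GC content near that of COL6A1 (64.1% and 63.5%), with fold changes of −0.000605 and 0.03. Protein-coding genes within 2 points of COL6A1 in GC had a median of 0.14, with 78.9% above 0. TNXB and CSPG4 thus both lay below the median of genes of like GC content. The part of GC content in their values was not tested. Of 20 genes that fold and modify collagens 0 passed and 3 had an unadjusted p under 0.05. SERPINH1, the collagen chaperone HSP47, had 56.7 ± 6.43 and 60.8 ± 1.95 CPM, and P3H4, a partner of collagen lysyl hydroxylation, 47.9 ± 7.20 and 47.9 ± 4.91. Matrix proteases and their inhibitors gave 0 of 13, with 2 unadjusted and a median of 0.12. MMP9, a gelatinase, had 53.3 ± 4.06 and 55.4 ± 0.926 CPM and BMP1, a procollagen protease, 42.0 ± 7.31 and 47.0 ± 6.44.

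Other collagen genes gave 0 of 39, with 3 at an unadjusted p under 0.05. COL5A1, a chain of fibrillar collagen V, had 192 ± 5.54 and 189 ± 13.4 CPM, and COL18A1, the collagen that releases endostatin, 142 ± 14.5 and 157 ± 4.35. Over the 94 genes of these lists, including COL6A4P1 and COL6A4P2, 8 had an unadjusted p under 0.05, beside 9.52% of all genes, and DESeq2 with and without its filter and limma-voom called 0. Their median was 0.03, and −0.03 after GC correction.

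The genes whose pattern over the 6 libraries was most like the summed CPM of COL6A1 and COL6A2 were SCRIB (Pearson r = 0.986), PLEC (0.983), NKPD1 (0.975), FCGBP (0.973) and PLEKHG3 (0.967), out of 588 genes with at least as many counts as COL6A1. Their exon GC was 66.4%, 67.2%, 63.4%, 63.0% and 58.8%, and their fold changes were 0.29, 0.30, 0.15, 0.13 and 0.12. SCRIB encodes a cell polarity scaffold and PLEC the cytoskeletal linker plectin. With 6 points in 2 groups, any gene that differs evenly between groups scores high on this measure.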

How the data were processed

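Per the submitters' processing notes, reads were handled with Trim Galore 0.4.2, cutadapt 1.9.1, FastQC 0.11.7, STAR 2.6.1e, featureCounts 1.6.2 and DESeq2 1.26.0 on hg38, with no roles stated. The authors deposited raw counts per gene symbol, 1 column per library. The strand setting, annotation and treatment of multiply aligned reads have no entry in those notes (not given in the sources used here). Libraries were made from about 10 ng of total RNA with 9 PCR cycles, per the labels, and PCR reads are not independent molecules. The labels call the 3 libraries of a group biological replicates, and titles gave their numbers, since a description repeats one.

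The counts were fitted with edgeR 4.0.16 (R 4.3.3; TMM, filterByExpr, robust quasi-likelihood F test, two-sided, adjusted p under 0.05), checked on simulated counts. Of 38167 symbols, 27214 (71.3%) had exon length and GC from GENCODE 29 and 35508 (93.0%) a position from RefSeq. Alternatives included DESeq2 1.42.0, limma 3.58.1, GC correction (a smooth curve of log2 count on GC per library, as an offset), other scalings and filters, and leaving out each library. Likeness and correlations used log2(CPM + 0.5). The members and lists were chosen with earlier results of these data known. Named genes were the members, called genes and the 2 most abundant of each list, the nearest protein-coding neighbours and the 5 genes of most similar pattern. The sequence of 1 member is not reported here.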

Additional observations from a re-analysis of the deposited data

How the results depend on the processing

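COL6A2 was called at 0.39 and stayed above 0 in all 19 alternatives, but it no longer passed with scaling by library totals alone (0.12), GC correction (0.22), the replicate block with GC correction (0.22) and without soft or stiff replicate 2 (0.35 to 0.43 over libraries left out; adjusted p over all alternatives 0.00245 to 0.344). COL6A1 stayed above 0 and uncalled in all 19 (0.01 to 0.31). Under library totals alone COL6A3 (−0.13) and COL6A5 (−0.17) turned below 0 and COL6A6 (−0.30) was called. COL6A6 ranged from −0.15 to 0.018 with libraries left out, above 0 without stiff replicate 1 (0.018) or stiff replicate 3 (0.01). The count of 140 genes called was 3995 under library totals, 62 with GC correction (over 23080 genes, of which the fit without it called 86 higher and 28 lower), 66 with the replicate block and GC correction, 81 and 46 with DESeq2 with and without its filter, 91 with limma-voom, and 60 to 136 with a library left out (77 without soft replicate 2, and 85, 60 and 75 without stiff replicate 1, 2 and 3). The ratio of the pair to COL6A3 was 1.08 to 1.22 times higher in stiff with a library left out. Per kb, 9 of 10 pairs of members passed with longest transcripts or RefSeq-matched exons, with COL6A3 above COL6A5 by 0.53 and 0.52, and 0 of 10 with a library left out, since 5 libraries allow no p under 0.0625. The cause of the other changes was not tested.

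Same-numbered soft and stiff libraries did not deviate together (r = 0.00648, 0.00409 and 0.00888 over 15770 genes), and not every library correlated best with its own number. The replicate block called 173 genes and left COL6A2 at 0.39 and COL6A1 at 0.28. COL6A3, COL6A5 and COL6A6 had 129 to 276 counts per library and fold changes within 2 SE of 0.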
